A study of Mus musculus with 14 samples.

Results

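Of 108795 merged regions of open chromatin in the mouse mammary tumor line 4T1, 8579 had an ATAC-seq peak after 12 h at 1% oxygen and in none of the other 6 peak lists. They are called 12 h-only regions here. To find them, overlapping or touching peaks of all 7 lists were merged, and a region was kept if the 12 h list alone had a peak in it. They made up 7.89% of all regions and 10.7% (95% interval 10.5 to 10.9) of the 80276 regions with a 12 h peak. This share is what the selection itself counts, and it is given as a description.

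ATAC-seq uses a transposase that inserts adapters into accessible DNA, and here it was run on bulk samples of fixed 4T1 cells. The labels state that no antibody was used, while the study's text describes staining of HIF1 alpha protein in this time course, and which holds for these libraries was not settled. The 14 samples formed 7 groups of 2: 4T1 cells in normoxia and 4T1 cells held at 1% oxygen for 6, 12, 24, 36, 48 or 72 h and fixed while still in hypoxia. No group carried an added transgene or drug in the labels, and the labels call the controls normoxic without an oxygen level. A legend of the study, for flow cytometry of the same line, names 5% oxygen for its control cells, and whether that holds for these samples was not settled. Each peak list was called on the pooled reads of both samples of a group, so no value below has a replicate error and no test between conditions could be made. All groups come from a single cell line, and in bulk samples a site open in fewer cells and a site less open in each cell cannot be told apart. Of 5 epithelial marker genes, Epcam, Cdh1, Krt8, Krt18 and Cldn7, 4 had a promoter peak in all 7 lists, against 1 of 7 immune markers and 2 of 7 fibroblast and endothelial markers.

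Accessible regions away from gene starts are often enhancers, short stretches of DNA where transcription factors bind and act on genes at a distance. AP-1, a dimer of FOS and JUN proteins, binds many enhancers in epithelial and tumor cells and responds to growth signals and stress. In low oxygen, the hypoxia-inducible factors (HIF) are stabilized and bind a short core sequence near genes of glycolysis, blood vessel growth and pH control.

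The sequences of 8 strong 12 h-only regions show what such a region looks like. Each is 201 bases of the mm9 assembly on the forward strand, centered on the summit of the 12 h peak, and capitals mark matches to the motifs defined further on. The first 5 are among the strongest of all 12 h-only regions and the last 3 among the strongest at a promoter. They lie at chr9:106300462-106300662 (nearest protein-coding start, Dusp7), chr13:104284554-104284754 (Gm16416), chr8:37840948-37841148 (in an intron of Dlc1), chr12:8504251-8504451 (Rhob), chr2:102565381-102565581 (in an intron of Slc1a2), chr6:54552894-54553094 (promoter of Plekha8), chr2:150654008-150654208 (promoter of Pygb) and chr8:90482788-90482988 (promoter of Zfp423).
near Dusp7: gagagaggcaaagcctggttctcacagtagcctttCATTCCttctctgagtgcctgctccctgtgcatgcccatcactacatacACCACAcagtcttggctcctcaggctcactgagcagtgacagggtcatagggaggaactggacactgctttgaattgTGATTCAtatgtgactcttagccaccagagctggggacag
near Gm16416: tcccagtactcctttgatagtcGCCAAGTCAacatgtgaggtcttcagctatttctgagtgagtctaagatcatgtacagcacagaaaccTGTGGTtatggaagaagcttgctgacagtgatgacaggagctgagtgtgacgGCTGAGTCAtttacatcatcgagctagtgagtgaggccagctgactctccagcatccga
Dlc1 intron: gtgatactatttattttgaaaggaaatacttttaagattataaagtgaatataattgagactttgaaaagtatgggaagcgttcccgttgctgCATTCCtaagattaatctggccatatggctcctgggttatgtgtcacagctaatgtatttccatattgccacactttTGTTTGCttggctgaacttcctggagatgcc
near Rhob: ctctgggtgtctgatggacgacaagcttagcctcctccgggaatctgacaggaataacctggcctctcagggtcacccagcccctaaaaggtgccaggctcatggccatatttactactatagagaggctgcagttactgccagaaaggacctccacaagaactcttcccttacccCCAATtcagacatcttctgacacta
Slc1a2 intron: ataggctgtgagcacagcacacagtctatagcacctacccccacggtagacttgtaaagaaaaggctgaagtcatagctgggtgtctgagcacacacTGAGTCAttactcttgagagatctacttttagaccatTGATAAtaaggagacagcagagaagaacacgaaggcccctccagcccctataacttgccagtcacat
Plekha8 promoter: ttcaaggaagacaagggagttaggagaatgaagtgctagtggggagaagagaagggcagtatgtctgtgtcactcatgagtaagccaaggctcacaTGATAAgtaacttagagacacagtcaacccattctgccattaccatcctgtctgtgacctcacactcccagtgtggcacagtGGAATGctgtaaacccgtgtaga
Pygb promoter: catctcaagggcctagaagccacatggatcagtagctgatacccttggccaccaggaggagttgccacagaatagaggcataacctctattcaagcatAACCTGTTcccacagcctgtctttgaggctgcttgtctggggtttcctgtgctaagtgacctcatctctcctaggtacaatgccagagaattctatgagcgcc
Zfp423 promoter: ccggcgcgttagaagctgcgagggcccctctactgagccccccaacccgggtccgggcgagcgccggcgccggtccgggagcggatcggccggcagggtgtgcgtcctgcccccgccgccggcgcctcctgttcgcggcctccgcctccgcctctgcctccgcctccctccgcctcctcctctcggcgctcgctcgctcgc

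The regions near Dusp7 and Gm16416 and in Slc1a2 hold an AP-1 sequence, and in Slc1a2 it lies across the summit, from 3 bases before it to 3 bases after it. In the region near Gm16416 the AP-1 sequence lies inside a match to the longer NRF2 sequence, so the capitals there mark both. The regions in Dlc1 and near Rhob, and those at Plekha8 and Pygb, have other motif matches and no AP-1 sequence. The window at Zfp423 has no match to any of the 20 motifs and a GC content of 78.6%, against 37.3% in the window in Dlc1.

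The 12 h-only regions were weak for the 12 h list. Peak strength is given as the -log10 q of the peak caller, which tests the reads at the summit against the local background of the same pooled reads, and these are the values that chose the regions. Their -log10 q ran from 1.30 to 18.9 with a median of 3.25, while the 71697 other regions with a 12 h peak had a median of 13.8. The summit held a median of 12 reads (range 8 to 71), against 28 in the other 12 h regions. The median fold over local background was 3.59 against 6.27, and the median peak width was 247 bp against 498 bp. Only 1602 of the 8579 regions (18.7%) reached a -log10 q of 5, and 65 reached 10. At the top of the 12 h list, 29490 peaks were stronger than the strongest 12 h-only region. The narrowest width in the list, 200 bp, was shared by 1642 of them, and 94 were 500 bp or wider.

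The share of 12 h regions with no peak in any other list fell from the weak end of the list to the strong end. It was 48.6% of 2905 regions with a -log10 q under 2, 41.2% of 4235 from 2 to under 3, 28.9% of 13224 from 3 to under 5, 9.04% of 16996 from 5 to under 10, and 0.151% of 42916 at 10 or more. The largest block of 12 h-only regions, 3819, lay between 3 and 5. The plot of 12 h regions by peak strength shows both the numbers and the shares.

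**Figure D1:**
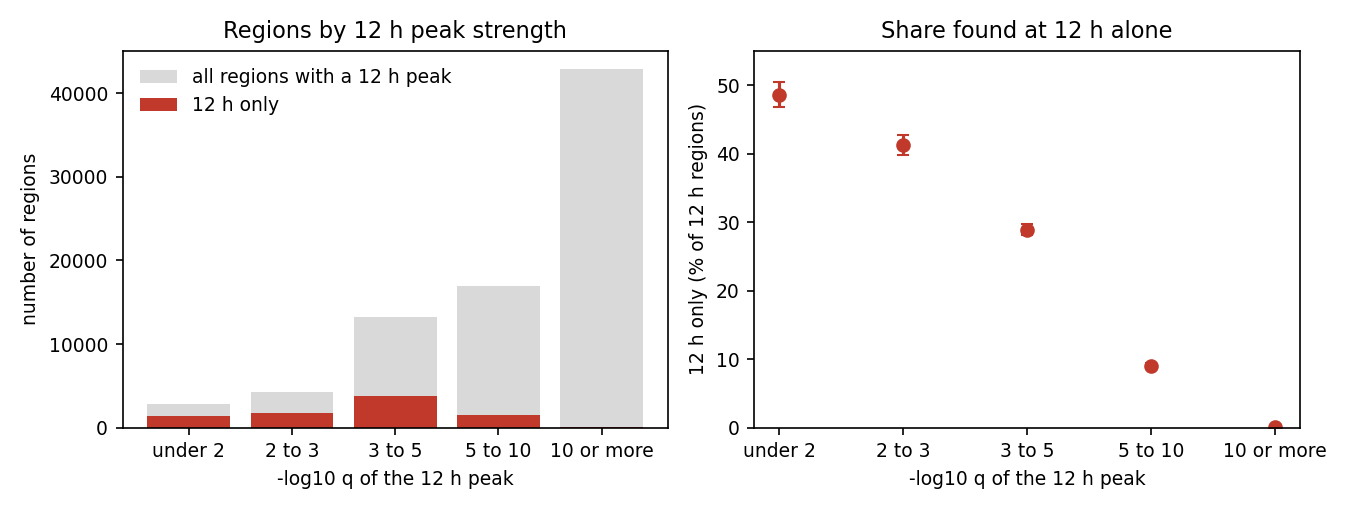
Left, number of regions with a 12 h peak in 5 bands of -log10 q, with 12 h-only regions in red and all 12 h regions in grey. Right, 12 h-only regions as a share of the 12 h regions of each band, in percent, with exact 95% intervals that cover counting error only; the share drops from 48.6% in the weakest band to 0.151% in the strongest.

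At the threshold, faint peaks decided which regions were kept. The 3 weakest lay in an intron of Sctr, the secretin receptor gene, at a -log10 q of 1.30 with 13 summit reads, in an intron of Itgav, which encodes integrin alpha V, with the same 1.30 and 13 reads, and at the promoter of Ngef, a guanine nucleotide exchange factor gene, at 1.31 with 8 reads. The 3 regions left out by the faintest peak of a single other list lay in an intron of Col4a3, a collagen IV gene, with a 72 h peak at 1.30, near Mtap, a purine salvage gene, with a 48 h peak at 1.31, and near Cerkl with a 48 h peak at 1.31. Their 12 h peaks stood at 5.49, 5.78 and 4.93, above the median of the 12 h-only regions. Equal values recur because peaks with the same reads over the same background have the same -log10 q.

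The 12 h list was the longest of the 7, with 81732 peaks, and the lists differed in reads at the summits and in background. Peak numbers in the other lists ran from 49006 at 6 h to 74284 at 48 h. In regions present in all 7 lists, the median ratio of summit reads to those at 12 h was 0.524 in normoxia and 0.625, 0.784, 0.684, 0.907 and 0.696 at 6, 24, 36, 48 and 72 h. The 12 h list thus had the most reads at shared summits. Its genome background, 2.34 reads, was not the highest: it was 0.926 in normoxia and 3.25, 1.85, 2.22, 2.52 and 2.52 at 6, 24, 36, 48 and 72 h. Summit reads combine depth with signal over background, and these cannot be told apart here. Regions with a peak in a single list numbered 2987 for normoxia and 1478, 4370, 2993, 4471 and 4099 for 6, 24, 36, 48 and 72 h. These are 2.75%, 1.36%, 4.02%, 2.75%, 4.11% and 3.77% of all regions. With the 20000 strongest peaks of every list instead of the full lists, the 12 h list had 408 such regions, the fewest of the 7, and the 72 h list the most with 1205. The part of list length, depth and background in the number of 12 h-only regions was not tested beyond these counts.

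**Figure D2:**
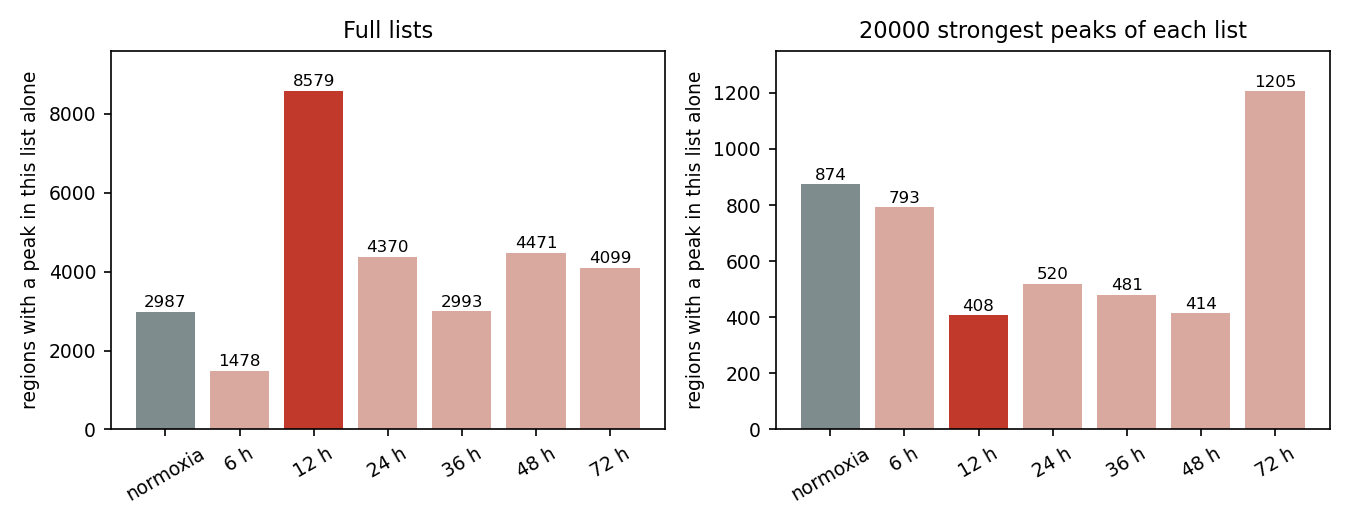
Number of regions with a peak in 1 list alone, by list, from the full lists (left) and from the 20000 strongest peaks of each list (right). The 12 h bar (red) is the highest on the left at 8579 and the lowest on the right at 408; each list pools 2 samples, so the bars have no replicate error.

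Scaling showed how close the 12 h-only regions came to the reach of each other list. The summit reads of each region were multiplied by the ratio of a list to the 12 h list, and compared with a limit for that list, the median reads of its peaks with a -log10 q under 2. At the 6 h list, 574 regions (6.69%) would have reached the limit of 12 reads. At 36 h it was 2460 (28.7%) for a limit of 9 reads, and at 72 h 3314 (38.6%) for 9 reads. At 24 h it was 5947 (69.3%) for a limit of 8 reads. In normoxia, whose genome background was the lowest, the limit was 5 reads and 7295 regions (85.0%) reached it. At 48 h the limit was 9 reads and again 7295 regions (85.0%) reached it. By this scaling only 574 regions reached the limit in all 6 other lists, and 1284 in none. The limit is a number of reads that leaves out a region's local background, so reaching it does not mean a peak would be called. For 2252 regions the local background at 12 h was over 1% above the genome background. A region with no peak in a list is therefore a region not called there, which is not the same as closed chromatin.

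Among the 12 h regions, strength rose with the number of lists that shared them. The median 12 h -log10 q was 3.25 in the 12 h-only regions, 3.96 in the 6723 regions with a peak in exactly 1 other list, 4.71 with 2 others, 5.87 with 3, 7.91 with 4, 10.8 with 5 and 32.1 in the 36113 regions of all 7 lists. Where exactly 1 other list shared the region, that list was most often the 24 h list, with 2082 regions (31.0%), then the 48 h list with 1725 (25.7%) and normoxia with 1131 (16.8%). The 6 h list was the partner of 323 (4.80%). As a share of the partner list's own regions, these pairs made up 2.99% for 24 h, 2.39% for 48 h and 1.95% for normoxia. For 72, 36 and 6 h the share was 1.36%, 1.02% and 0.687%. The part of list length in this order was not tested.

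By the selection, no peak of another list overlapped or touched a 12 h-only region. Distances for a comparison set were not computed, so those given here are a description. The nearest peak of any other list lay at a median of 6390 bp from a 12 h-only region. It was within 100 bp for 176 regions, within 1 kb for 1332 (15.5%) and within 10 kb for 63.9%, and 459 regions (5.35%) had none within 50 kb. The nearest region of all 7 lists lay at a median of 20233 bp. Such regions are a part of those with a peak of another list, so the longer distance follows largely from the definition. Of the 15 strongest 12 h-only regions, the one near Rhob was the closest to a peak of another list, at 281 bp.

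These 15 strongest regions lay mostly away from gene starts, 7 between genes, 6 in introns and 2 at promoters. The strongest, chr9:106300419-106300733, lay 23469 bp from the start of Dusp7, which encodes a phosphatase of MAP kinases, with 44 reads over a local background of 6.88 and a -log10 q of 18.9. The next, at chr13:104284434-104284903 and 97245 bp from the predicted gene Gm16416, had 27 reads and 17.7. A region in an intron of Dlc1, a gene of a GTPase-activating protein, followed with 26 reads and 16.7.

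The region near Rhob, a small GTPase gene, differed in kind from these. It had 66 summit reads over a local background of 18.9 reads, so its fold was 3.36 although its -log10 q was 14.8, and it was 870 bp wide. Of the 15, 12 stood on the genome background of the 12 h list, 2.34 reads, and their fold was set by their reads alone. Regions in an intron of Slc1a2, a glutamate transporter gene, near Pvrl1, which encodes the adhesion protein nectin-1, and at the promoter of Sp6, a zinc finger factor of the SP family, each had 24 reads and a -log10 q of 14.6. With 23 reads and 13.6 came those near Pomc, the gene of a hormone precursor, and Mmp12, a macrophage elastase gene, one in an intron of Lrpprc, which binds mitochondrial mRNA, and one at the promoter of Plekha8, a lipid transfer protein gene.

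The last of the 15 lay in introns of Jmjd1c, of the jumonji demethylase family (13.1), and of Hs6st3, a heparan sulfate sulfotransferase gene, and Arhgap8, another gene of a GTPase-activating protein (12.6 each). The Hs6st3 region was 85101 bp from the nearest peak of another list and the Gm16416 region 106802 bp. The scaled reads of all 15 reached the limit in every other list. This follows largely from their choice by 12 h strength, and the comparison leaves out their local background. An AP-1 sequence was found in 7 of the 15 windows, those of Dusp7, Gm16416, Sp6, Slc1a2, Pomc, Mmp12 and Jmjd1c, and 2 windows, those of Pvrl1 and Hs6st3, held none of the motifs.

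Few 12 h-only regions were at promoters, taken as 1 kb on each side of a protein-coding start. There were 506 of them, 5.90% (interval 5.41 to 6.42), against 28.6% (28.2 to 29.1) of the regions in all 7 lists and 14.5% of all regions. The other 12 h regions of like 12 h strength, with a -log10 q under 5, had 7.83% (7.38 to 8.30), and the 12 h-only regions under 5 had 5.91% (5.36 to 6.48). Distances ran from the edge of the merged region, so a wider region reaches a start more easily. The median 12 h peak width was 247 bp in the 12 h-only regions and 498 bp in the other 12 h regions. The part of width in these shares was not tested. Introns held 38.7% of the 12 h-only regions and 52.9% were intergenic, while coding exons held 1.07% and exons of untranslated regions (UTR) 1.42%. The promoter share was 5.49% in normoxia-only regions and 10.8%, 4.81%, 8.85%, 8.07% and 6.37% in those of 6, 24, 36, 48 and 72 h. The 12 h share thus lay inside the range of the other single-list sets. The median distance to a protein-coding start was 33010 bp, against 22997 bp over all regions. A further 130 regions outside these promoters were within 1 kb of the start of a gene that is not protein-coding, among them 38 pseudogenes and 19 lincRNA genes.

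**Figure D3:**
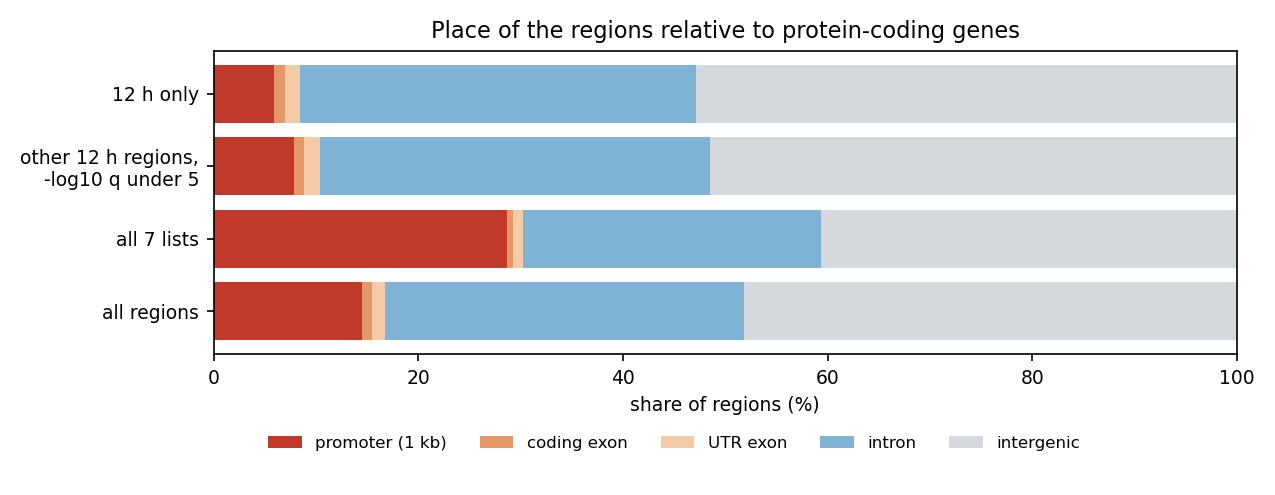
Share of regions (%) at a promoter, in a coding exon, in a UTR exon, in an intron or between protein-coding genes, for 4 sets of regions. Promoters take 5.90% of the 12 h-only regions, 7.83% of the other 12 h regions with a -log10 q under 5 and 28.6% of the regions in all 7 lists.

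At the level of genes, 510 of 22238 protein-coding genes (2.29%) had a 12 h-only region within 1 kb of a start. At 255 of them (50%) each of the 7 lists had a promoter peak, beside 46.7% of all protein-coding genes. There the 12 h-only region was additional to the peaks of the other 6 lists. The 12 h promoter peak in this count can be the 12 h-only region itself. For 175 of them every promoter peak was in the 12 h list, and the remaining 80 had promoter peaks in other lists too. Counting all genes, 181 had promoter peaks in the 12 h list alone, against 52 in normoxia alone and 78, 59, 122, 116 and 67 at 6, 24, 36, 48 and 72 h alone. The 12 h list had the most such genes and was also the longest, and the part of list length in this was not tested.

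The 10 strongest regions at promoters fell into both kinds. Sp6, Zfp423, Mmp15, Col6a3, Hspb1, Sbsn and Ly6d had a promoter peak in no list but that of 12 h. Plekha8, Uba2 and Pygb had one in all 7 lists, where that of 12 h can be the 12 h-only region itself. The Uba2 region, at the gene of a subunit of the SUMO-activating enzyme, had 40 reads over a background of 8.86 and a -log10 q of 12.2, and the nearest peak of another list was 540 bp away. The region at Pygb, a glycogen phosphorylase gene, had 26 reads and 11.6.

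Among the genes with a promoter peak at 12 h alone, Zfp423, a zinc finger factor gene, had 20 reads and a -log10 q of 10.7. Mmp15, a membrane-type metalloproteinase gene, had 33 reads over a background of 7.32 and 9.96. Col6a3, a collagen VI chain gene, Hspb1, the gene of a small heat shock protein, and Sbsn, which encodes suprabasin of stratified epithelia, had 19 reads and 9.78 each. Ly6d, a surface protein gene, had 18 reads and 8.87. An AP-1 sequence was present in 5 of the 10 windows, those of Sp6, Uba2, Col6a3, Sbsn and Ly6d. The scaled reads reached the limit in every other list for the Zfp423 and Mmp15 regions, but not for those of Col6a3, Hspb1, Sbsn and Ly6d.

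Several HIF targets had a 12 h-only region nearby. Promoter peaks in all 7 lists were found at 36 of 42 HIF target genes, against 46.7% of all protein-coding genes, and also at 10 of 10 stress response genes and 10 of 12 epithelial genes. A 12 h-only region lay within 10 kb of the body of 12 of them (28.6%), against 19.2% of all protein-coding genes, and at the promoter of 3. Vegfa, which encodes the main growth factor of blood vessels, had 2 at its promoter, one with 18 reads and a -log10 q of 4.59 and one across an annotated start with 14 reads and 2.30. Angptl4, a lipid metabolism gene, had one with 25 reads and 4.02. Car9, the carbonic anhydrase gene that is a classical HIF target, had one with 8 reads and 1.35.

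The strongest within 10 kb lay by Gapdh, a glycolysis gene, at 6.30 and in an intron of the neighboring gene Iffo1. One in an intron of Mxi1, a MYC antagonist gene, had 40 reads and 5.67. The others, near Adm, P4ha1, Higd1a, Egln3, Pgam1, Hk2 and Car12 and a further one in Mxi1, had values from 1.35 to 3.96. Among 8 genes of HIF subunits and oxygen sensors, 2 had one within 10 kb and none at a promoter. The region near Epas1, the gene of HIF-2 alpha, stood at 11.7 with 21 reads, and those at Arnt2 at 4.89 and 1.94.

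Of 10 AP-1 genes, 3 had a 12 h-only region within 10 kb, where the share over all protein-coding genes was 19.2%. The region in a UTR exon of Jun had 71 summit reads, the most of any 12 h-only region, and a -log10 q of 8.55. Those in introns of Fosl1 and Fosl2 stood at 2.95 and 2.57. Of 12 factors that the study discusses, 5 had one: Grhl1 at 5.86, Foxp1 at 4.71 and 3.25, the Pitx1 promoter at 1.94, and Grhl2 and Smarcc1 at 2.57 and 1.35. The median length of these 12 genes was 37.3 kb, against 15.4 kb for all protein-coding genes, and gene length was not accounted for. Of 12 epithelial genes, Esrp1, an epithelial splicing factor gene, had an intronic region at 7.13 and Krt18 a region at 2.31. None of the 10 mesenchymal genes and none of the 10 stress response genes had one.

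Over these 7 lists, 24 of 102 genes (23.5%) had a 12 h-only region within 10 kb and 4 had one at a promoter, beside 19.2% and 2.29% of all genes. Among the markers of other cell types, 4 of 7 immune genes had one within 10 kb, near Cd3e at 7.99, at the promoter of Itgax beside Itgam at 5.49, at the promoter of Arhgef1 beside Cd79a at 4.48, and in introns of Ptprc at 1.94 and 1.91. One of 7 fibroblast and endothelial genes had one, near Pecam1 at 1.94.

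Long genes held the most 12 h-only regions. The 2808 protein-coding genes with at least 1 region inside their body had a median length of 85.9 kb, against 15.4 kb for all. No such length was computed for genes that hold other 12 h regions, so it is not a trait shown for 12 h-only regions. Gm20388 came first with 19, over an annotated span of 4435 kb that covers other genes. These were 6.88% of the 276 12 h regions there, beside a share of 10.7% over all 12 h regions. Trappc9, a gene of membrane traffic, held 11, or 39.3% of its 28 12 h regions. Fgfr2, a fibroblast growth factor receptor gene, held 11 over an annotated span of 3009 kb, 9.48% of 116 regions. The 12 h-only regions were most of the 12 h regions in Cntn5 (8 of 13) and Rbms3 (10 of 19), whose strongest peaks stood at 6.43 and 3.95. Thsd7b, Arhgap26 and Macrod2 held 9 each, and Nckap5 and Dlgap2 held 8.

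Along the genome the regions were spread widely. On the autosomes, 12 h-only regions made up 8.94% (chromosome 17) to 12.1% (chromosome 9) of the 12 h regions, and on the X chromosome 10.5%. Most, 5414 (63.1%), had no other within 50 kb, and 309 runs held 3 or more. The longest runs had 7 regions each. One, over 119 kb at chr10:126186685-126305820 around Xrcc6bp1, held values from 1.94 to 4.71, and the other, over 101 kb at chr7:128949575-129050655 around Cog7 and Scnn1b, values from 2.15 to 7.13. The next, with 6 regions over 70.8 kb at Ywhaq, a 14-3-3 protein gene, had values from 1.94 to 7.13, and runs at Farp1 and at Bcl2l14 and Lrp6 also had 6.

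The windows of 100 bp on each side of the 12 h-only summits were poorer in G and C than those of shared regions, as were those of most other single-list sets. Their GC content averaged 46.6% (SD 6.96 over regions), against 50.4% in the other 12 h regions, 53.1% in the regions of all 7 lists and 49.2% over all regions. It was 46.6% in normoxia-only windows and 51.1%, 45.1%, 47.9%, 46.7% and 46.8% in those of 6, 24, 36, 48 and 72 h. At like strength the gap was smaller, 46.5% against 47.5% for 12 h peaks with a -log10 q under 5. Like strength here and below refers to the 12 h peak alone. In shared regions the window was centered on the strongest summit of any list, which may be a stronger peak than that of 12 h. Among the 506 at promoters it was 54.9%. No CpG was present in 20.5% of the windows, against 16.0% over all regions. Simple dinucleotide runs were rare, in 1.39% of windows.

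The motifs were fixed consensus letters, read on both strands, where N stands for any base. They were TGANTCA for AP-1, TGACGTCA for the CREB and ATF site (CRE), ACGTG or GCGTG for HIF, TTGCNNCAA for C/EBP, TGTTTAC or TGTTTGC for forkhead factors (FOX), TTTCGCGC or TTTGGCGC for E2F, CCAAT for NF-Y, CCGGAA for ETS and GGAATG for TEAD. Others were TGTGGT for RUNX, AACCNGTT for grainyhead-like factors, TGACNNNGC for NRF2, CAGGTG for SNAI and ZEB factors, GGGCGG for SP and KLF factors and AGATAA or TGATAA for GATA factors. The longer consensus sequences of CTCF, a full NFI site, p53, NRF1 and NF-kappa B were searched too. Short ones occur in many windows of any kind, and a match is a description of the letters and not a binding site. Matches of different motifs may overlap, as AP-1 and NRF2 do near Gm16416.

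An AP-1 sequence was the most frequent match. It was present in 35.2% (interval 34.2 to 36.2) of the 12 h-only windows, close to the 37.5% (37.2 to 37.8) over all regions. The other 12 h regions had 42.8% (42.4 to 43.2) and those of all 7 lists 44.1% (43.6 to 44.6). At like strength of the 12 h peak, under a -log10 q of 5, the values were 33.4% (32.2 to 34.5) and 35.8% (35.0 to 36.6). Windows of the other 12 h regions may be centered on a stronger peak of another list, and the part of this was not tested. In each of 4 bands of GC content at that strength the 12 h-only share was the lower one. From 5 to under 10 the order was reversed, with 42.6% (40.1 to 45.1) against 41.1% (40.4 to 41.9), and the intervals overlapped. The 12 h-only share was thus not above that over all regions or, under 5, that of the other 12 h regions.

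Against the other single-list sets, however, the 12 h share was the highest. An AP-1 sequence was in 23.3% of normoxia-only windows and in 14.2%, 30.0%, 17.5%, 27.9% and 17.3% of those at 6, 24, 36, 48 and 72 h. The share also rose with peak strength. In 12 h-only regions it was 29.7% (28.1 to 31.3) under a -log10 q of 3, 36.4% (34.8 to 37.9) from 3 to under 5 and 43.1% (40.7 to 45.6) at 5 or more. In 24 h-only regions the same bands had 25.4%, 32.8% and 45.2% (40.0 to 50.4), and in the other 12 h regions 34.5%, 36.3% and 44.4%. In 72 h-only regions they had 16.1%, 17.6% and 20.2% (17.0 to 23.6). In all 3 bands the 12 h interval lay above those of normoxia, 6, 36, 48 and 72 h, although under 3 the gap to 48 h was narrow, with 26.0% (24.0 to 28.10) against a lower limit of 28.11%. Whether this ordering would be kept with replicate samples was not tested, and the lists also differ in depth and background.

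**Figure D4:**
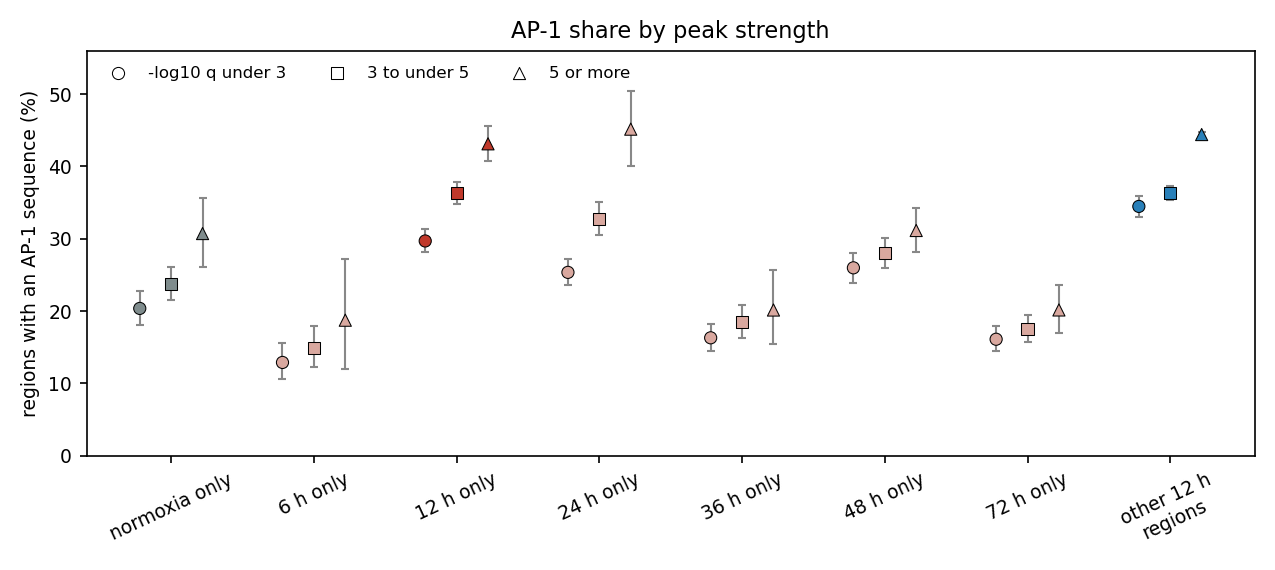
Share of regions with an AP-1 sequence within 100 bp of the summit (%), for each single-list set and for the other 12 h regions, in 3 bands of -log10 q (circle under 3, square 3 to under 5, triangle 5 or more), with exact 95% intervals for counting error only. The 12 h-only points (dark red) rise from 29.7% to 43.1% and those of 72 h from 16.1% to 20.2%. The other 12 h regions were banded by their 12 h peak and read at the strongest summit of any list.

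The AP-1 sequences of 12 h-only regions were gathered at the summit. This measure was chosen after the motif shares had been seen. Within 50 bp of the summit there were 238 sites per 1000 regions per 100 bp, against 41.3 at 150 to 240 bp, a ratio of 5.75. The ratio was 6.62 in the other 12 h regions with a 12 h -log10 q under 5. It was 10.2 in the regions of all 7 lists with a 12 h -log10 q of 5 or more. In the single-list sets it was 5.89 at 48 h, 5.12 at 24 h, 3.29 at 72 h, 3.20 in normoxia, 2.80 at 36 h and 2.34 at 6 h. An AP-1 sequence lay within 25 bp of the summit in 1047 regions (12.2%).

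**Figure D5:**
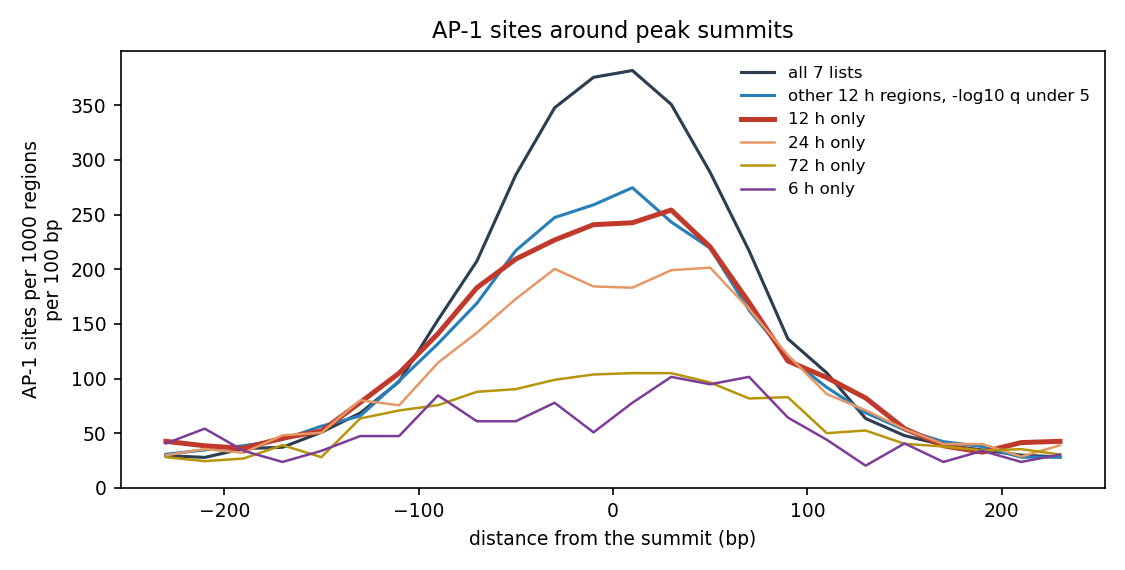
AP-1 sites per 1000 regions per 100 bp (vertical axis) by distance from the peak summit in bp (horizontal axis), in bins of 20 bp, for 6 sets of regions. Shared regions were centered on the strongest summit of any list. For the regions of all 7 lists, sites were counted only where the 12 h -log10 q was 5 or more. They were divided by all 36113 regions, so that line is too low. The 12 h-only regions (thick red line) follow the other 12 h regions with a -log10 q under 5, with 238 against 249 sites within 50 bp of the summit, while the 72 h-only regions have 103 and the 6 h-only regions 78.4.

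The CTCF sequence, of the factor that organizes chromatin loops, was gathered at the summit too, with a ratio of 9.54 in 12 h-only regions. The ratio was 11.3 in the other 12 h regions with a 12 h -log10 q under 5. It was 3.44 in the regions of all 7 lists with a 12 h -log10 q of 5 or more. In the other single-list sets it was 13.6 in normoxia and 2.91, 10.3, 8.04, 11.7 and 4.01 at 6, 24, 36, 48 and 72 h. The CTCF sequence was in 3.21% (2.84 to 3.60) of the 12 h-only windows and 3.62% over all regions. At like strength it was in 3.28% (2.88 to 3.73), against 5.71% (5.32 to 6.11) of the other 12 h regions, and lower in 4 of 4 GC bands. The TEAD and RUNX sequences were gathered less, with ratios of 1.55 and 1.56. The ratio was 1.15 for the HIF core, 0.970 for NF-Y, 1.02 for FOX and 0.740 for GATA.

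The HIF core was in 18.04% (17.2 to 18.9) of the 12 h-only windows, against 23.6% over all regions and 31.7% in the regions of all 7 lists. At like strength the values were 18.1% (17.2 to 19.0) and 19.7% (19.0 to 20.3). At the 506 promoters it was in 30.6%. The SP sequence, which is rich in G and C, was in 3.83% against 11.3% over all regions, and at like strength in 3.97% against 6.23%. ETS was in 2.30% against 5.07%, and at like strength in 2.28% against 3.27%. Both were lower in 4 of 4 GC bands.

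Several other sequences were about as frequent as over all regions. NF-Y was in 25.7% against 25.1%, RUNX in 21.6% against 20.7%, TEAD in 15.7% against 16.5% and FOX in 7.15% against 6.85%. SNAI was in 1287 of the 8579 windows, an interval of 14.3% to 15.8%, against 14.4%. GATA, made mostly of A and T, was in 16.3% against 14.0%. The rare ones, C/EBP (1.53%), grainyhead-like (1.70%), p53 (0.688%), CRE (0.431%), NF-kappa B (0.408%), E2F (0.117%) and NFI (0.0233%), were each in under 2% of the windows. NRF1 was found in none, which at an exact 95% interval allows a share of up to 0.0430%. No motif at all was found in 11.7% of the 12 h-only windows, against 9.66% over all regions.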

How the data were processed

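Bulk ATAC-seq of 14 samples of 4T1 cells was used, and groups were taken from the sample labels. As stated in the methods and in the processing notes of the submitters, read pairs were trimmed, aligned to mm9 (Bowtie2 2.1.0) and kept if properly paired and of a mapping quality above 30. The authors took out duplicates (Picard 1.79) and mitochondrial reads, pooled the 2 samples of each group and ran MACS2 in narrow mode on the pool, with a version not given in the sources used here. In the deposited lists the fold divides the reads at the summit by the local background, after a pseudocount is added to each. The -log10 p-value and -log10 q-value come from the same peak caller. The deposited score column is the -log10 q multiplied by 10 by the peak caller and was not used. Values in the deposited lists were not scaled across lists. For their comparison of conditions, the authors counted reads in a merged peak set and normalized these counts with DESeq2, and those counts were not used here. Every list began at the level of a q of 0.05, looser than the setting the methods state for bulk samples. The filters of the methods for mitochondrial-like and excluded regions were not applied here. No column of another sample was present.

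Where a list gave several summits for an interval, the strongest stood for it. Sequence windows of merged regions were centered on the strongest summit over all lists. Summit reads and background were solved from the fold and -log10 p of each peak. Sequences were read from NCBIM37, which is the mm9 assembly, and genes from the GENCODE annotation made on it. A gene start was any annotated start of a protein-coding transcript. Motif letters were textbook consensus sequences. Intervals are exact binomial (Clopper-Pearson) at 95%, cover counting error only and treat regions as independent. Merging, read recovery, distances and motif search were tested on simulated data and gave the planted answers. Read totals per sample were not analysed here, so depth was read from summit reads and the genome background alone.

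The regions, gene lists and motifs were chosen with earlier results of these data known. Named were the 15 strongest regions, the 10 strongest at promoters, those at promoters of listed genes and up to 3 within 10 kb of the genes of each list, the 10 genes with the most regions, the 3 weakest and the 3 just left out, and the 3 longest runs, with the 2 that tie with the last of them. The other listed genes with a region, and those near cell type markers, were named after their values were seen. One of the strongest regions is not reported here. Sequences were shown for up to 6 of the first and 3 of the second kind, and windows with over 30 bases of untranslated exon were passed over. Alternatives were other strength thresholds, equal list lengths, other overlap rules, leaving out each other list, another promoter distance, the whole peak searched, and bands of GC content and strength. Computing was done in Python 3.11.15 with pysam 0.24.0 for sequence, scipy 1.17.1 for intervals, matplotlib 3.10.9 for figures, and pandas 2.3.3 and numpy 2.4.6.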

Additional observations from a re-analysis of the deposited data

How the results depend on the processing

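The number of 12 h-only regions depended on thresholds and list length. It was 8579 from the full lists, 5400 with a -log10 q of 5 or more in every list, 1602 with that threshold on the 12 h list alone, 408 from the 20000 strongest peaks of every list and 0 from the 20000 strongest 12 h peaks against the full other lists. A -log10 q of 2 in every list, a cover of 0.5 of the 12 h peak as the overlap, merging within 200 bp, summits with 250 bp on each side and autosomes alone gave 7735, 10024, 8143, 8296 and 8363, and leaving out 1 other list gave 8914 to 10716, all within 1.5 times. The promoter share of 5.90% was 15.8% with starts within 5 kb, 11.8% from the 20000 strongest peaks of every list, 4.96% with peaks within 200 bp merged and 5.87% in regions with a -log10 q of 5 or more. The AP-1 share of 35.2% was 39.8% over the whole peak, 43.1% in regions with a -log10 q of 5 or more and 33.4% under 5. By GC content it was 41.7% under 40%, 38.5% from 40 to under 45%, 36.9% from 45 to under 50% and 26.8% at 50% or more. The cause of these shifts was not tested. For the other 19 motifs, 62 of 133 shares left the interval of the value reported. No paired analysis was possible because each peak list pools both replicates of a group, and for the same reason no replicate could be left out. Depth and background limit what the lists show, since a region without a peak was not called. With reads scaled to each list, 6.69%, 69.3%, 28.7%, 85.0% and 38.6% of the 12 h-only regions reached the limits of the 6, 24, 36, 48 and 72 h lists, and 85.0% that of normoxia.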
